A study of Mus musculus with 8 samples.

Results

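The genes described here are Clu, Kitl, Inhba, Inhbb, Trf, Sox9, Wt1, Gata4 and Gata6, 9 genes that mark Sertoli cells by what they secrete or by the transcription factors that set their identity. Every probe set annotated with exactly 1 of these symbols was taken, which gave 18 of the 22626 probe sets on the array that are not controls. The 18 probe sets read 8 of the 9 genes. Clu and Kitl had 4 probe sets each, Sox9, Gata4, Gata6 and Inhbb had 2 each, and Wt1 and Inhba had 1 each. The 1 probe set that lists Trf also lists another gene, so transferrin was not read.

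RNA came from the mouse Sertoli line TTE3, made from transgenic animals whose large T-antigen (simian virus 40) works only at the permissive temperature, and was hybridised to Affymetrix Mouse Expression 430A arrays. All 4 groups were cultures of TTE3 given 0.2 mM bisphenol A (BPA), from which polycarbonate is made, for 0, 3, 6 or 12 h. Each time had 2 arrays. Separate cultures are not stated for the 2 arrays at a given time, so p-values reflect only the spread among these arrays, possibly technical. Unexposed cells at the later times were not analysed here, so BPA and time in culture cannot be told apart. TTE3 is 1 line that carries a viral oncogene.

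Sertoli cells line the seminiferous tubule, feed the developing germ cells and build the blood-testis barrier. SOX9 and WT1 set and keep their fate, and GATA4 and GATA6 are zinc finger factors that act on the promoters of Sertoli cell genes. Among what the cells secrete, clusterin (Clu) is an extracellular chaperone, KIT ligand (Kitl) binds the receptor KIT on spermatogonia, transferrin carries iron to germ cells, and the inhibin beta A and beta B subunits (Inhba, Inhbb) assemble into activins, or with the alpha subunit into inhibins that act on the pituitary.

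Sequence before the transcription start was taken for Inhba, Inhbb and Kitl, the 3 of the 9 genes in the RefSeq promoter table used (build GRCm38.p6). They are shown as the start regions of 3 secreted members, whose signals are given below. The 7 short motifs searched on both strands were TGANTCA (AP-1), TGACGTCA (cAMP response element), TTGCATCA (C/EBP-ATF composite), the letters AGATAA for GATA factors, ACAAAG for SOX factors, GGGCGG for the GC box, and TATAAA for the TATA element. Each run below is the 250 bases before the start, 5′ to 3′, with matches in capitals.
Inhba, chr13:16011601-16011850, plus strand: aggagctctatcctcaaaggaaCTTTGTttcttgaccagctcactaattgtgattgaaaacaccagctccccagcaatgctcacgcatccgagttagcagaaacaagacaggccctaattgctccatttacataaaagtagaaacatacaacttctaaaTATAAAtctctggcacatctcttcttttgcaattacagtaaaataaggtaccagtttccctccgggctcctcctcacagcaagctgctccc
Inhbb, chr1:119422249-119422498, minus strand: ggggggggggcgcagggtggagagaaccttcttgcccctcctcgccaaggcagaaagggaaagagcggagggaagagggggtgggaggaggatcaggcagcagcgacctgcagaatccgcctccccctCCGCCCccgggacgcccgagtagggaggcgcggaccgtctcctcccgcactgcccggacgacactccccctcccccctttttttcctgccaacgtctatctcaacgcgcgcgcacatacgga
Kitl, chr10:100015571-100015820, plus strand: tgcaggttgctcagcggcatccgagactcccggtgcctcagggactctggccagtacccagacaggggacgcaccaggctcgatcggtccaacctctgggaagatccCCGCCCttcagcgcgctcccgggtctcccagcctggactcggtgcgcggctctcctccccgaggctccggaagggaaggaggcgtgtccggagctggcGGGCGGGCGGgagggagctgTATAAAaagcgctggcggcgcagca

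The Inhba stretch held 1 SOX match on the minus strand, 228 bases before the start, and 1 TATA match 91 bases before it. The Inhbb stretch held 1 GC box match, on the minus strand 122 bases before the start. The Kitl stretch held 3 GC box matches, 143, 45 and 41 bases before the start, of which the nearest to the start overlap each other, and 1 TATA match 25 bases before the start. Of 32851 promoters in the table, 16.5% held the SOX letters, 32.7% the GC box and 12.4% the TATA letters in the same 250 bases. No match to the GATA (9.99% of promoters), AP-1 (6.75%), cAMP response element (1.55%) or composite (0.791%) letters was present in the 3 stretches. GC content was 43.2% for Inhba, 68.0% for Inhbb and 69.2% for Kitl.

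The signals are linear units that the authors scaled per array, with a trimmed mean between 500.16 and 500.18 on all 8 arrays. The median signal of an array lay between 150.9 and 170.1, and arrays of the same time correlated at 0.97 to 0.982. The ratio of the 3′ to the 5′ Gapdh control probe sets, a sign of RNA quality, was 0.713 to 0.82. As a low reference, the 3 control probe sets for a bacterial tryptophan gene (TrpnX) read 0.7 to 27.1 with a median of 6.05. Of the 18 probe sets, 10 were above the array's median on all 8 arrays, 7 lay on both sides of it, and 1 (Sox9 1424950_at) was below it on all 8. Signals of different probe sets depend on how well each probe binds, so tests were made between times within a probe set only, and the array median and the sums below serve as rough guides to level.

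**Figure D1:**
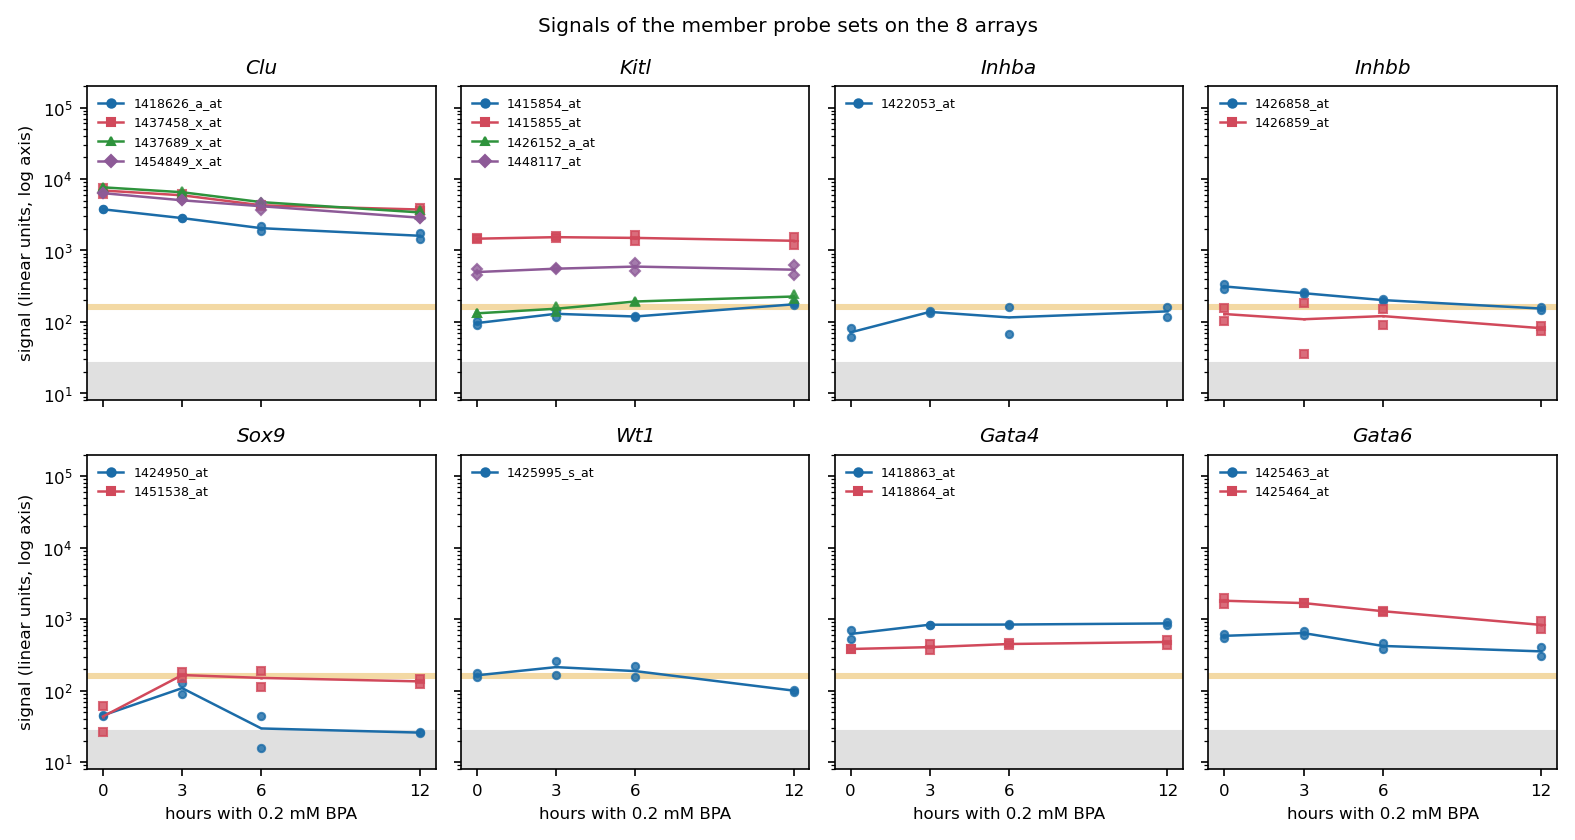
Signals of the 18 probe sets by gene, with hours of 0.2 mM BPA on the x axis and the linear signal on a log y axis. Points are arrays and lines join the means of 2 arrays, the tan band is the range of the array medians (150.9 to 170.1) and the grey band the top of the TrpnX control range (up to 27.1). The 4 Clu probe sets lay far above both bands and were lower at each later time, and Sox9 1424950_at lay in or near the grey band at 6 and 12 h.

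Each probe set was tested with limma on log2(signal + 7.9), with Benjamini-Hochberg adjustment over the 15838 probe sets tested. Changes are log2 differences of the later minus the earlier time, with their standard error. A change counted as called at an adjusted p under 0.05. All 18 probe sets passed the filter on low signals.

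At 12 h against 0 h, 4 of the 18 probe sets were called higher (background 17% of all probe sets tested) and 7 lower (background 16.4%, or 33.4% in either direction), with a median change of -0.62 against 0.03 over all probe sets. The 7 lower ones were the 4 of Clu, both of Gata6 and 1 of 2 of Inhbb. The 4 higher ones were 2 of 4 of Kitl, 1 of 2 of Sox9 and 1 of 2 of Gata4. Probe sets of 1 gene are not separate genes, so the counts and medians weigh Clu and Kitl 4 times each. The genes were also chosen with earlier results of these data known, so the counts are a description only. By the brightest probe set of each gene, 3 of 8 were lower and 2 higher at 12 h, against 1521 lower and 1810 higher of 8675 genes. At 6 h against 0 h, 2 were higher (background 13%) and 6 lower (background 8.84%, or 21.8% in either direction), with a median of -0.04 against 0.04. At 3 h against 0 h, 1 was higher (background 5.91%) and 0 lower (background 2.87%, or 8.78% in either direction), with a median of 0.11 against 0.04. The 3 comparisons share the 0 h arrays. By the moderated F test over the 3 changes against 0 h, 9 of the 18 probe sets passed, in 5 genes (Clu, Sox9, Wt1, Gata6 and Inhbb), against 29.3% of all probe sets.

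**Figure D2:**
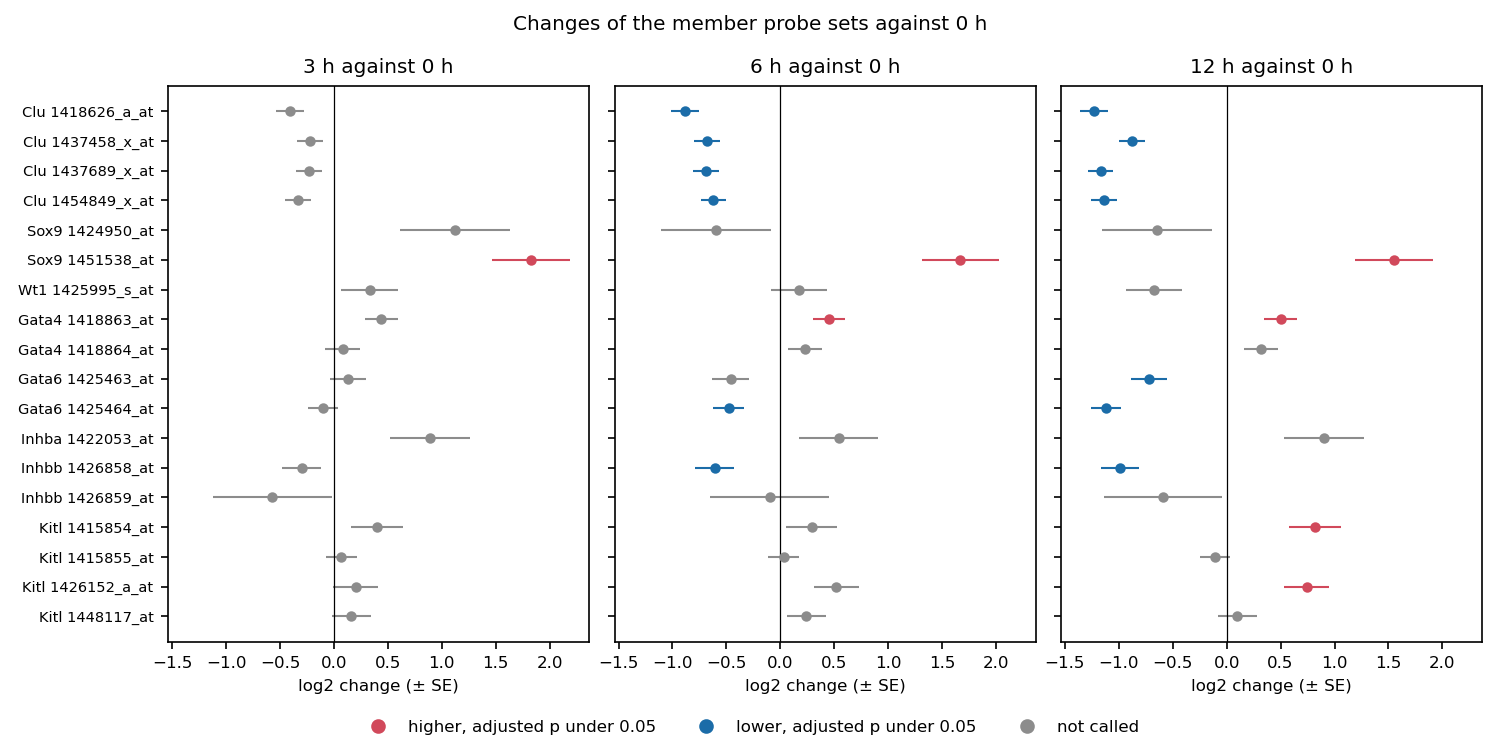
Log2 change (x axis, points, with bars of ± 1 standard error) of each of the 18 probe sets (rows) at 3, 6 and 12 h against 0 h. Red and blue points are called higher and lower at an adjusted p under 0.05, and grey points are not called. The 4 Clu probe sets changed by -0.41 to -0.22 at 3 h and by -1.23 to -0.88 at 12 h, whereas the bars of Sox9 1424950_at and Inhbb 1426859_at are wide.

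Clusterin fell on all 4 of its probe sets. Clu 1437689_x_at read 7747.4 and 7553.6 at 0 h, 6224.6 and 6841.1 at 3 h, 4765.1 and 4733.0 at 6 h, and 3089.3 and 3729.1 at 12 h. Both arrays of each time lay below both arrays of the time before. Its mean at 12 h was 3409.2 ± 452.4 against 7650.5 ± 137.0 at 0 h (SD, n = 2 each), 44.6% of the 0 h level. The log2 change was -1.17 ± 0.12 at 12 h (adjusted p = 1.79e-05) and -0.69 ± 0.12 at 6 h (adjusted p = 0.00153), both called. At 3 h it was -0.23 ± 0.12 (adjusted p = 0.272) and was not called.

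Clu 1418626_a_at gave a like course, with 3770.5 and 3768.8 at 0 h, 2843.0 and 2834.5 at 3 h, 1874.7 and 2227.4 at 6 h, and 1456.0 and 1758.0 at 12 h. Again the arrays of successive times did not overlap. The change was -1.23 ± 0.13 at 12 h (adjusted p = 2.05e-05), -0.88 ± 0.13 at 6 h (adjusted p = 0.000474) and -0.41 ± 0.13 at 3 h (adjusted p = 0.0668). Clu 1437458_x_at and 1454849_x_at changed by -0.88 (adjusted p = 0.000164) and -1.14 (adjusted p = 2.76e-05) at 12 h, each ± 0.12. Over the 4 probe sets the 12 h mean was 42.6% to 54.2% of the 0 h mean. The 12 h and 6 h calls against 0 h, and the 12 h call against 3 h (changes of -0.94 to -0.66), held under every alternative run.

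The 3 h values do not settle whether Clu had already moved by then. At 3 h the mean of each of the 4 probe sets was below that at 0 h, by 0.22 to 0.41 on the log2 scale, and none was called. With the arrays scaled to the same median, 1418626_a_at (-0.54, adjusted p = 0.0181) and 1454849_x_at (-0.46, adjusted p = 0.0358) were called. At an unchanged size, both were also called without the first or second 6 h array (0.0365 and 0.0362 for 1418626_a_at, 0.0405 and 0.0399 for 1454849_x_at) and with only the groups compared (0.0135 and 0.0276), and 1418626_a_at with the replicate block (0.0319). Across the 8 arrays the log2 signals of the 4 probe sets correlated at 0.92 to 0.97, so they are not 4 separate readings of the gene. Of them, 3 end in _x_at, a suffix for probes that may bind other transcripts.

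KIT ligand was read differently by its 4 probe sets, so that no single direction describes the gene. Kitl 1426152_a_at read 132.4 and 131.8 at 0 h, 139.6 and 166.9 at 3 h, 198.9 and 188.0 at 6 h, and 246.7 and 207.6 at 12 h. Both 12 h arrays were above both 0 h arrays, and so were both at 6 h. The change at 12 h was 0.74 ± 0.21 (adjusted p = 0.0155), with means of 227.1 ± 27.6 at 12 h and 132.1 ± 0.424 at 0 h (SD, n = 2 each). At 6 h it was 0.52 ± 0.21 (adjusted p = 0.0952).

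Kitl 1415854_at read 102.5 and 90.6 at 0 h, 118.3 and 141.8 at 3 h, 121.2 and 117.4 at 6 h, and 171.1 and 182.2 at 12 h. The 12 h arrays stood above all the earlier ones, and the change against 0 h was 0.82 ± 0.24 (adjusted p = 0.0186). Kitl 1415855_at, by contrast, read 1439.7 and 1485.8 at 0 h, 1574.8 and 1497.9 at 3 h, 1359.5 and 1640.8 at 6 h, and 1211.0 and 1524.4 at 12 h. Its groups overlapped at 12 h against 0 h, with a change of -0.11 ± 0.14 (adjusted p = 0.602, 95% interval -0.42 to 0.2). Kitl 1448117_at changed by 0.10 ± 0.18 at 12 h (adjusted p = 0.724, 95% interval -0.29 to 0.49), with means of 539.0 ± 113.5 at 12 h and 499.4 ± 61.2 at 0 h.

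The probe sets of Kitl fell into 2 pairs by their course, 1415854_at with 1426152_a_at (correlation 0.81 over 8 arrays) and 1415855_at with 1448117_at (0.79), while the correlations between the pairs were -0.50 to 0.10. The pair that was higher at 12 h lies near the array median, and the pair that was not called lies above it on every array. Averaged over the 4 probe sets, the change at 12 h was 0.39 (adjusted p = 0.0375). The 12 h call of 1415854_at was lost without either array of 0 h (adjusted p = 0.0556 without the first and 0.107 without the second) or of 12 h (0.0577 and 0.0806) and with no filter on low signals (0.0519). That of 1426152_a_at was lost without either 0 h array (0.07 and 0.0726) or the first 12 h array (0.103).

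The activin and inhibin subunits gave opposite signs at 12 h, of which the beta B change alone was called. Inhbb 1426858_at read 290.8 and 337.4 at 0 h, 262.8 and 242.7 at 3 h, 210.3 and 194.4 at 6 h, and 147.1 and 161.0 at 12 h. Each later time lay wholly below the one before. The change at 12 h was -0.99 ± 0.18 (adjusted p = 0.00131), with means of 154.1 ± 9.83 at 12 h and 314.1 ± 33.0 at 0 h (SD, n = 2 each). At 6 h it was -0.61 ± 0.18 (adjusted p = 0.0306), and 12 h against 3 h gave -0.69 (adjusted p = 0.0226).

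The other beta B probe set, Inhbb 1426859_at, read 103.0 and 155.3 at 0 h, 35.4 and 183.0 at 3 h, 91.8 and 150.1 at 6 h, and 88.7 and 75.1 at 12 h. Its 3 h arrays lay on either side of all the others, and its change at 12 h was -0.59 ± 0.55 (adjusted p = 0.452). The pair correlated at 0.17. With the mean of both probe sets, the beta B change was -0.79 at 12 h (adjusted p = 0.0609) and -0.36 at 6 h (0.432). For 12 h against 3 h that mean gave -0.35 (adjusted p = 0.457), so this call was lost too. The 6 h call of 1426858_at was also lost without any 1 of the 4 arrays compared (adjusted p = 0.0771 and 0.212 without the 0 h arrays, 0.0658 and 0.104 without the 6 h arrays) and without the filter (0.065). Its 12 h call against 3 h was lost without the first or second 3 h array (0.124 and 0.0755) or the first 12 h array (0.101).

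Inhba 1422053_at, the beta A subunit, read 82.0 and 60.9 at 0 h, 144.1 and 132.6 at 3 h, 162.9 and 68.6 at 6 h, and 163.9 and 117.4 at 12 h. Both 3 h arrays and both 12 h arrays were above both 0 h arrays, whereas the 6 h arrays were spread across them. The changes of 0.89 ± 0.37 at 3 h (adjusted p = 0.167), 0.54 ± 0.37 at 6 h (adjusted p = 0.338) and 0.90 ± 0.37 at 12 h (adjusted p = 0.0809) were not called. The 12 h change passed without the first (adjusted p = 0.032) or second (0.0245) 6 h array, with the replicate block (0.037) and with only the groups compared (0.0415), and the 6 h change (1.12) passed without the second 6 h array (0.0383). Inhba lay below the array median on 7 of the 8 arrays.

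Among the transcription factors, Gata6 fell on both of its probe sets. Gata6 1425464_at read 1983.7 and 1639.3 at 0 h, 1695.7 and 1664.4 at 3 h, 1315.6 and 1271.2 at 6 h, and 732.8 and 930.6 at 12 h. The 3 h and 0 h arrays overlapped, the 6 h arrays lay below both, and the 12 h arrays lay below all the rest. The change was -0.10 ± 0.14 at 3 h (adjusted p = 0.727), -0.48 ± 0.14 at 6 h (0.029) and -1.12 ± 0.14 at 12 h (9.26e-05). The 12 h mean was 831.7 ± 139.9 against 1811.5 ± 243.5 at 0 h (SD, n = 2 each).

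Gata6 1425463_at read 627.9 and 541.7 at 0 h, 592.4 and 685.6 at 3 h, 386.9 and 458.0 at 6 h, and 301.3 and 407.5 at 12 h. Both later times lay below both 0 h arrays, and the change was -0.46 ± 0.17 at 6 h (adjusted p = 0.082) and -0.72 ± 0.17 at 12 h (0.0073). The 6 h change was called with quantile normalization (-0.54, adjusted p = 0.0451) and with the arrays scaled to the same median (-0.58, 0.0315). The 2 probe sets correlated at 0.91 over the 8 arrays. Between 12 h and 3 h they changed by -1.02 (1425464_at, adjusted p = 0.000573) and -0.85 (1425463_at, adjusted p = 0.00655). For 1425464_at the 12 h calls against 0 h and 3 h held under every alternative run. Its 6 h call was lost without the first 0 h array (-0.34, adjusted p = 0.247), without the first or second 6 h array (0.0644 and 0.0807) and without the intensity trend (0.099). For 1425463_at the 12 h call was lost without the first array of 0 h (0.0732) or of 12 h (0.074), and the call against 3 h without the second 3 h array (0.0634) or the first 12 h array (0.0602).

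Gata4 did not follow Gata6. Gata4 1418863_at read 710.5 and 532.1 at 0 h, 841.8 and 832.5 at 3 h, 858.1 and 824.5 at 6 h, and 820.6 and 924.3 at 12 h. All 6 arrays with exposure were above both 0 h arrays, and the 3 exposed groups overlapped one another. The change was 0.44 ± 0.15 at 3 h (adjusted p = 0.0922), 0.45 ± 0.15 at 6 h (0.0496) and 0.50 ± 0.15 at 12 h (0.0217). The result rests on the lower 0 h array, without which the 12 h change was 0.29 (adjusted p = 0.236) and the 6 h change 0.24 (0.395). The 12 h call was also lost without the second 12 h array (0.125) or the intensity trend (0.0671), and the 6 h call under 14 of 19 alternatives.

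Gata4 1418864_at read 380.6 and 384.9 at 0 h, 447.2 and 365.5 at 3 h, 465.5 and 433.3 at 6 h, and 517.7 and 441.7 at 12 h. The 12 h arrays were above the 0 h arrays, with a change of 0.32 ± 0.16 that was not called (adjusted p = 0.143, 95% interval -0.03 to 0.67). The log2 signals of the 2 Gata4 probe sets correlated at 0.48. Whether the changes of Gata4 and Gata6 differ was not tested.

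Sox9 gave 2 readings that disagreed after 3 h. Sox9 1451538_at read 26.2 and 60.9 at 0 h, 182.4 and 148.4 at 3 h, 187.3 and 114.3 at 6 h, and 147.4 and 122.3 at 12 h. All 6 exposed arrays were above both 0 h arrays, of which the first lay within the TrpnX control range. The change was 1.83 ± 0.36 at 3 h (adjusted p = 0.00861), 1.67 ± 0.36 at 6 h (0.00655) and 1.55 ± 0.36 at 12 h (0.006). This was the 1 probe set of the 18 that was called at 3 h. Without the first 0 h array the changes were 1.33, 1.17 and 1.05, and none was called (adjusted p = 0.0789, 0.0623 and 0.0611). The 3 h call was also lost without the first 3 h array (0.0818) and the 6 h call without the first 6 h array (0.0559).

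Sox9 1424950_at read 46.3 and 43.9 at 0 h, 89.3 and 127.7 at 3 h, 15.7 and 43.6 at 6 h, and 26.0 and 25.9 at 12 h. Its 3 h arrays were above all others, and all 3 values below 27.1, at 6 and 12 h, lay within the TrpnX control range. The change was 1.12 ± 0.51 at 3 h (adjusted p = 0.217), -0.60 ± 0.51 at 6 h (0.449) and -0.65 ± 0.51 at 12 h (0.369). The 12 h arrays were lower than the 3 h arrays by a called -1.76 ± 0.51 (adjusted p = 0.0335), a size that is only a limit since both 12 h values lie in that range. That call was lost without either 0 h array (0.0575 and 0.0557), either 3 h array (0.0959 and 0.21) or either 12 h array (0.102 and 0.0904). The probe sets correlated at -0.02. With their mean, the 3 h call of 1451538_at held, while the changes of 0.53 at 6 h (adjusted p = 0.251) and 0.45 at 12 h (0.294) were not called.

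Wt1 1425995_s_at read 174.5 and 153.3 at 0 h, 165.2 and 261.9 at 3 h, 157.4 and 218.3 at 6 h, and 103.6 and 96.7 at 12 h. The 12 h arrays were below all others, and the first 3 groups overlapped. Against 0 h the change was -0.67 ± 0.26 at 12 h (adjusted p = 0.0707) and was not called, whereas 12 h against 3 h gave -1.0 ± 0.26 (adjusted p = 0.0219). That call was lost without the second 3 h array (-0.68, adjusted p = 0.192), the first or second 12 h array (0.0693 and 0.0805), the filter (0.0534) or the intensity trend (0.0509). The suffix _s_at marks probes shared between transcripts.

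Between the exposed times, 9 of the 18 probe sets were called lower and 0 higher at 12 h against 3 h (background 10.2% lower and 7.29% higher, 17.5% in all). They were the 4 of Clu, both of Gata6, Inhbb 1426858_at, Sox9 1424950_at and Wt1. At 12 h against 6 h, 3 were lower and 0 higher (background 2.41% lower and 0.568% higher, 2.97% in all), namely Clu 1437689_x_at (-0.48, adjusted p = 0.048), Clu 1454849_x_at (-0.52, 0.0405) and Gata6 1425464_at (-0.64, 0.0307). Those 3 calls were lost under 11 of 19, 11 of 17 and 9 of 19 alternatives, among them leaving out the first 12 h array (adjusted p = 0.273, 0.169 and 0.201). At 6 h against 3 h limma called 0 (background 0.972% in either direction, 0.492% higher and 0.48% lower), while 7 of the 18 had an unadjusted p under 0.05, against 2019 of the 15838 probe sets (12.7%). Those 7 were the 4 of Clu, both of Gata6 and Sox9 1424950_at, all with negative changes.

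The other Sertoli markers were read to check the label. Of the 16 Sertoli marker genes on the array, which include 6 of the genes above, 10 were above the filter on low signals. Above the array median on all 8 arrays were 5 of them, Clu, Gata4, Kitl, Nr5a1 (steroidogenic factor 1) and Ptgds (prostaglandin D synthase). Of the markers that passed the filter, Fshr reached 75.1 and Rhox5 81.7. The other 6, among them defining products of Sertoli cells, did not pass it. The highest signal over the 8 arrays was 58.0 for Amh (anti-Müllerian hormone), 13.5 for Cst9 (testatin), 15.9 for Gdnf (a niche factor for spermatogonial stem cells), 32.1 for Cldn11 (a tight junction protein), 52.0 for Dhh (desert hedgehog) and 49.1 for Dmrt1.

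Markers of other cell types were read in the same way. Of 9 germ cell markers on the array, 3 were above the filter and 0 above the array median on all arrays, with sums of 260.6 to 272.2 at 12 h and 236.9 to 240.2 at 0 h. Of 4 Leydig cell markers, Star alone was above the filter. It lay above the array median on all 8 arrays and was lower at 6 h (293.4 ± 37.4 against 436.5 ± 27.8 at 0 h, -0.57 ± 0.16, adjusted p = 0.0222) but not called at 12 h (0.08 ± 0.16, 0.727). Of the macrophage, endothelial and granulosa cell markers 3, 2 and 1 were tested, and 0 were called at 12 h against 0 h. The macrophage marker Cd68 (303.5 to 387.2) and the granulosa cell marker Wnt4 (281.9 to 484.2) lay above the array median on all 8 arrays, and 0 endothelial markers did. Of the 6 peritubular and fibroblast markers tested, 2 were lower at 12 h (background 16.4%) and 0 higher, Dcn (decorin, -0.98 ± 0.11) and Col1a1 (-1.54 ± 0.13). The other 4 were not called, with changes of -0.37 for Col1a2, -0.01 for Des, 0.18 for Acta2 and 1.03 for Pdgfra, and the median of the list was -0.19. The sum over the 9 of these on the array was 4614.4 to 5396.3 at 12 h and 9774.0 to 9774.4 at 0 h, most of it Dcn. Dcn (3908.5 to 8440.4) and Col1a1 (315.3 to 1067.7) lay above the array median on all 8 arrays. At 0 h the mean of Dcn was 8431.8, against 7650.5 for the brightest Clu probe set. Of the muscle genes in that list, Acta2 reached 233.6, Des lay between 64.2 and 138.4, and Myh11 was at 42.2 or less. Cnn1 reached 72.6 and Tagln 61.7. The part of other cells in the fall of Clu, Gata6 and Inhbb was not tested, and in RNA from whole cultures fewer cells of a type and less RNA per cell cannot be told apart.

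Related genes were read by their brightest probe set. In a separate fit of the brightest probe set per gene, with its own filter and adjustment, 1521 of 8675 genes were lower at 12 h and 1810 higher. The median there was 0.06. Calls of list genes come from the main fit, and the background printed with each list is the share of all probe sets called there. At 12 h that share was 16.4% lower and 17% higher. The lists were chosen with earlier results of these data known, so counts set against the background are a description only. Of 12 Sertoli transcription factors and receptors tested, 2 were lower at 12 h and 0 higher, near that share for lower calls. The thyroid hormone receptor Thra had 332.9 ± 7.99 at 12 h against 555.5 ± 24.8 at 0 h (SD, n = 2 each), a change of -0.72 ± 0.14 (adjusted p = 0.00164). The LIM homeobox gene Lhx2 changed by -0.82 ± 0.26 (0.0282), a call lost without either 0 h array (0.12 and 0.111), the first 12 h array (0.165) or the filter (0.0688). The median of the list was -0.23, against 0.03 over all probe sets.

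Of 13 Sertoli secreted factors tested that are not among the 9 genes, 5 were lower at 12 h (background 16.4%) and 0 higher (background 17%), and the median was -0.43. The chemokine Cxcl12 had 842.2 ± 20.1 at 12 h against 4126.1 ± 122.4 at 0 h, a change of -2.28 ± 0.11 (adjusted p = 9.47e-08). Bmp4 (a bone morphogenetic protein) changed by -0.88 ± 0.21 (0.00645), Psap (prosaposin) by -0.53 ± 0.10 (0.00215) and Plat (tissue plasminogen activator) by -0.51 ± 0.13 (0.00772). The call of Bmp4 was lost without the first array of 0 h (0.066) or of 12 h (0.0505), and that of Plat without the second 0 h array (0.106). At 6 h 2 of the 13 were lower (background 8.84%) and at 3 h 1 (background 2.87%), with 0 higher at either time.

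In the activin and inhibin pathway, 3 of 14 genes tested were lower at 12 h (background 16.4%) and 1 higher (background 17%), with a median of 0.19. Acvr1b, a type I activin receptor, changed by -1.29 ± 0.19 (adjusted p = 0.000271), Acvr2a, a type II receptor, by -0.66 ± 0.16 (0.00677), and Tgfbr3, the betaglycan that binds inhibin, by -1.18 ± 0.32 (0.0143). Smad2, which carries the signal to the nucleus, changed by 0.46 ± 0.12 (0.0106). The alpha subunit Inha had 104.4 ± 45.6 at 12 h and 70.2 ± 7.57 at 0 h and was not called (0.47 ± 0.34, adjusted p = 0.334). The call of Tgfbr3 was lost without the first array of 0 h (0.119) or of 12 h (0.0986), that of Acvr2a without the second 0 h array (0.0717), and that of Smad2 without that array (0.112) or the first 12 h array (0.0663).

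With transferrin itself unread, 3 of 12 tested genes of iron uptake and storage were higher at 12 h (background 17%) and 3 lower (background 16.4%), with a median of 0.05. Hmox1, the haem oxygenase that frees iron from haem, had 2239.6 ± 89.2 at 12 h against 381.1 ± 32.3 at 0 h, a change of 2.53 ± 0.18 (adjusted p = 1.72e-06). Ireb2, an iron-responsive RNA-binding protein, changed by -1.82 ± 0.19 (2.1e-05). Hfe, a partner of the transferrin receptor, changed by -1.04 ± 0.28 (0.0123) and the iron exporter Slc40a1 by -0.92 ± 0.28 (0.0238). Tfrc, the transferrin receptor, had 3815.8 ± 232.2 at 12 h and 3887.4 ± 80.3 at 0 h and was not called (-0.03 ± 0.11, adjusted p = 0.874). The calls of Hfe (0.0691, 0.0705 and 0.0775) and Slc40a1 (0.132, 0.0917 and 0.113) were lost without the first or second 0 h array or the first 12 h array, and that of Slc40a1 also without the filter (0.0618).

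Of 9 partners of GATA4, WT1 and SOX9 tested, 3 were higher (background 17%) and 2 lower (background 16.4%) at 12 h. Wtap, named for binding WT1, changed by 0.99 ± 0.11 (adjusted p = 4.13e-05) and Cited2, a coactivator of WT1 in gonad development, by 0.71 ± 0.10 (0.000306). The acetyltransferase gene Crebbp changed by -1.01 ± 0.18 (0.0012). Sox5 changed by -1.91 ± 0.65 (0.0393), from 12 h signals of 49.3 ± 56.9 against 146.2 ± 28.6 at 0 h, and was lost without the second 12 h array (-0.65, adjusted p = 0.333) or either 0 h array (0.0987 and 0.177), the filter (0.0825) or the intensity trend (0.122). Cited2 was already higher at 3 h, with 9117.5 ± 494.9 against 3931.6 ± 212.1 at 0 h.

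Lrp2, Lrp8 and Vldlr, which are lipoprotein receptors, Kit, and Adam17, a protease, were the 5 genes tested of a list of clusterin receptors, heat shock factors and KIT, with 1 higher (background 17%) and 1 lower (background 16.4%) at 12 h. Kit, the receptor of KIT ligand, had 229.6 ± 84.5 at 12 h against 545.5 ± 31.2 at 0 h, a change of -1.27 ± 0.21 (adjusted p = 0.000621). Lrp8, a lipoprotein receptor that binds clusterin, had 176.6 ± 31.2 at 12 h against 68.6 ± 8.34 at 0 h, a change of 1.26 ± 0.26 (0.00249). Both calls held under every alternative run.

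**Figure D3:**
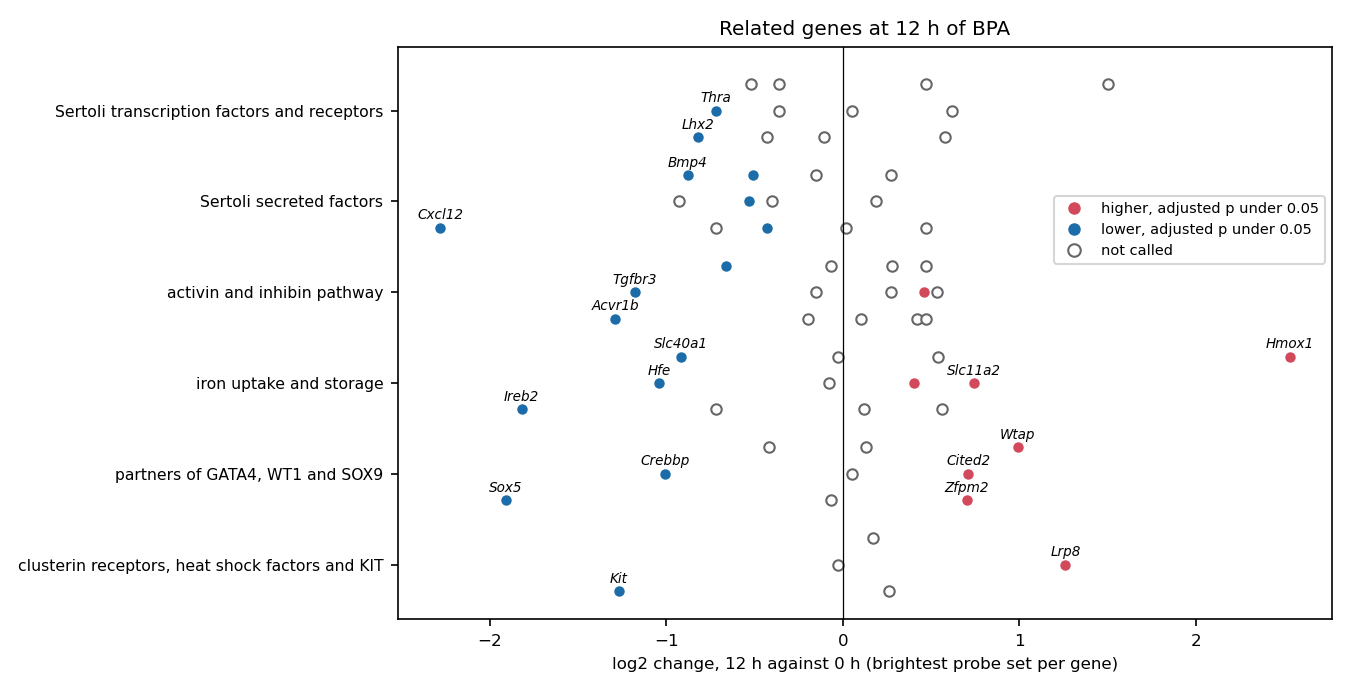
Log2 change at 12 h against 0 h (x axis) of each tested gene of the 6 related lists, 1 point a gene, with lists on the y axis and a small vertical offset for legibility. Filled red and blue points are called higher and lower, open points are not called, and called genes with a change of at least 0.7 are named. Hmox1 at 2.53 and Cxcl12 at -2.28 lie at the ends.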

How the data were processed

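Signals of 8 Affymetrix 430A arrays were read from the deposited value table. The values are linear intensity values, 1 per probe set, which the authors scaled to a common trimmed mean, as the values themselves show. How the probes were summarised, and with what software, is not given in the sources used here. The table holds 22690 probe sets, 64 of them controls. It was tested per probe set with limma 3.58.1 in R 4.3.3 (lmFit and eBayes with an intensity trend) on log2(signal + 7.9), 7.9 being the 10th percentile of all values. All 8 arrays were fitted with 1 mean per time, which left 4 residual degrees of freedom and a mean prior of 7.82. Probe sets whose mean log2 signal was above the 30th percentile (5.60, a signal of about 40.7) were tested, 15838 in all, and 6788 were not. Tests were two-sided, with Benjamini-Hochberg adjustment over all probe sets tested. The 95% intervals come from the same fit. The number of arrays limits the precision.

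Gene symbols came from the platform annotation. Of 20380 probe sets with 1 symbol, 20351 were checked through their Entrez number against RefSeq GRCm38.p6 and 29 kept the annotated symbol, while 691 list several and 1555 none. Every member probe set is named whatever its result. From each related list up to 4 called genes with the largest change at 12 h are named, and for each member whose brightest probe set passed the F test, the 3 genes most correlated with it. The names Dcn, Col1a1, Inha, Tfrc and Myh11, and the marker genes with values, were chosen after their values were seen. The members and lists were chosen with earlier results of these data known. Promoter sequences are from RefSeq. The fit was also run on simulated data with independent normal noise and changes in few probe sets, at 12 h only. That setting is unlike these data, so the run does not test the calls reported here. Alternatives were the normalization, the offset, the filter, the intensity trend, a replicate block, 1 value per gene, the groups fitted and leaving out each array.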

Additional observations from a re-analysis of the deposited data

Results flagged for a closer look

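Some probe sets had a positive mean change at 3 h and a negative one at 12 h, both against 0 h, with 12 h against 3 h called. For Wt1 1425995_s_at and Gata6 1425463_at the 3 h arrays overlapped those of 0 h, so a rise at 3 h is not shown. Sox9 1424950_at changed by -1.76 at 12 h against 3 h, with 26.0 and 25.9 at 12 h and 89.3 and 127.7 at 3 h, and its 12 h values lie within the range of the TrpnX controls (up to 27.1), so the size is only a limit. Wt1 1425995_s_at changed by -1.0 at 12 h against 3 h, with 103.6 and 96.7 at 12 h and 165.2 and 261.9 at 3 h. Gata6 1425463_at changed by -0.85 at 12 h against 3 h, with 301.3 and 407.5 at 12 h and 592.4 and 685.6 at 3 h. The change at 3 h against 0 h was called for none of the 3 (adjusted p = 0.217, 0.503 and 0.73 with limma). At 12 h against 0 h, Gata6 1425463_at was called (0.0073), and Sox9 1424950_at (0.369) and Wt1 (0.0707) were not. Calls of the 12 h step against 3 h were lost for all 3 when 1 of the arrays compared was left out.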

How the results depend on the processing

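Of the 32 called changes of the 18 member probe sets, 14 stayed called under every alternative that could be run for them, 18 were lost under at least 1, and 0 reversed. Of 34 uncalled changes against 0 h, 6 were called under at least 1 alternative. Of the 20 related genes named, 11 stayed called at 12 h and 9 were lost under at least 1. The cause of these differences was not tested, beyond fewer arrays or genes where the alternative leaves them out.

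Scaling the arrays to the same median gave 3 called members at 3 h against 0 h and 0 (5 at an unadjusted p under 0.05) at 12 h against 6 h. It shifted the median of all probe sets at 3 h against 0 h from 0.04 to -0.09 and the share of higher calls there from 67.3% to 39.0%, at 6 h against 0 h from 59.5% to 42.0%, at 12 h against 6 h from 19.1% to 44.8%, and at 12 h against 3 h from 41.6% to 62.6%. At 12 h against 0 h the shares were 50.9% and 49.8%. No filter left 1 member called at 12 h against 6 h. A filter at the 50th percentile left 12 members and called 0 at 3 h (3 at an unadjusted p under 0.05).

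Without the intensity trend the calls over all probe sets were 670 at 3 h, 0 at 6 h against 3 h (1829 at an unadjusted p under 0.05), 62 at 12 h against 6 h, 1679 at 12 h against 3 h and 3083 by the F test, with 0 members at 12 h against 6 h (6 unadjusted). The brightest probe set per gene (8675 genes and 8 members, so counts are out of fewer) gave 2299 calls at 6 h, 3331 at 12 h and 97 at 6 h against 3 h, with 5, 5 and 4 members at 6 h, 12 h and 12 h against 3 h. The mean of a gene's probe sets, an alternative chosen after seeing the data and also over 8675 genes, gave 2092 calls at 6 h, 3006 at 12 h, 85 at 6 h against 3 h, 1655 at 12 h against 3 h and 2754 by the F test. Fitting only the groups compared gave 3 members at 3 h, 90 calls at 6 h against 3 h and 127 at 12 h against 6 h, and 0 members called at 12 h against 6 h (5 unadjusted).

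The main fit did not pair arrays by the replicate numbers of the titles. The correlations of deviations between same-numbered arrays were 0.01 to 0.12, which with 2 arrays per time cannot decide whether the arrays were paired. With the number as a replicate block, 772 probe sets were called at 12 h against 6 h, against 471 without, and 2 members at 3 h.

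Leaving out 1 array at a time gave 508 to 1738 calls at 3 h (0 to 3 members), 1816 to 3483 at 6 h (4 to 7), 3468 to 5725 at 12 h (7 to 12), 24 to 194 at 6 h against 3 h, 174 to 464 at 12 h against 6 h (0 to 2), 1364 to 3221 at 12 h against 3 h (5 to 9) and 2764 to 5331 by the F test.

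The changes that turned sign were uncalled in the main setting. At 3 h, Gata4 1418864_at was -0.01 with quantile normalization and -0.05 with the same median, Kitl 1415855_at -0.06 (and -0.08 at 6 h) and Gata6 1425463_at -0.01 with the same median, and the mean of Gata6 0.01. The mean of Kitl was 0.39 at 12 h, against -0.11 for its brightest probe set. With 1 array left out, Gata4 1418864_at ranged from -0.07 to 0.22 at 3 h, Gata6 1425464_at from -0.24 to 0.04 at 3 h, Inhbb 1426859_at from -1.64 to 0.50 at 3 h and -0.43 to 0.23 at 6 h, Kitl 1415855_at from -0.10 to 0.17 at 6 h and -0.27 to 0.06 at 12 h, Kitl 1448117_at from -0.12 to 0.31 at 12 h, Inhba from -0.04 to 1.12 at 6 h and Wt1 from -0.05 to 0.40 at 6 h.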

Other observations

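The genes whose brightest probe set followed a member most closely over the 8 arrays were taken by Pearson correlation on the log2 scale, a description over arrays that share 4 times. Clu 1437689_x_at was followed by Nusap1 (0.994, a spindle protein), Pnrc1 (0.992) and Mbtd1 (0.992). The mean signal of Pnrc1 was 1023.8 at 12 h against 2303.4 at 0 h, and that of Nusap1 506.4 at 12 h against 583.5 at 0 h, a smaller difference with the same course. Gata6 1425464_at was followed by Trrap (0.994), Bach2 (0.983) and Cybc1 (0.983). Bach2, a transcription repressor gene, had a mean of 23.6 at 12 h, within the range of the TrpnX controls, against 166.1 at 0 h.

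Inhbb 1426858_at was followed by Gnpda1 (0.997), Pom121 (0.99) and Ccnd2 (0.989). Ccnd2, the cyclin D2 gene, had a mean of 2666.7 at 12 h against 7487.5 at 0 h. Sox9 1451538_at was followed by Trim34a (0.987), Dennd10 (0.964) and Map1s (0.958), whose means were higher at 3, 6 and 12 h than at 0 h. Wt1 1425995_s_at was followed by N4bp2l1 (0.984), Vps26c (0.984) and Deaf1 (0.959), each with its highest mean at 3 h and its lowest at 12 h.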
